A study of Mus musculus with 10 samples.

Results

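The regions described here had a strong open-chromatin peak in every library sorted as thymic epithelium from mouse embryos. These regions had no called peak in any library taken at day 6. They number 1533 of the 351411 regions (0.436%) obtained by merging the 10 deposited peak lists where peaks overlapped or touched. A region was taken when its strongest peak had a −log10 q of at least 5 in each of the 4 embryonic lists, when none of the 6 day 6 lists held a peak in it, and when the nearest protein-coding gene lay within 100 kb. The −log10 q is the authors' peak caller's measure of how far the reads at a peak stand above that library's own background. Since these values and the day 6 absence chose the regions, both are given as a description and neither is tested.

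The libraries measured chromatin accessibility by ATAC-seq, in which a transposase cuts and tags open chromatin, in sorted TEC (thymic epithelial cells) from C57BL/6 mice of wild type genotype. There were 2 libraries each at embryonic day 15 (E15), embryonic day 17 (E17), and day 6 for the fractions labelled mTEC4, mTEC1 and mTEC2. The peak names inside the files write aTEC, eTEC and Hi where the titles have mTEC4, mTEC1 and mTEC2, none of these names is spelled out, and the titles are used here. The embryonic titles name no fraction, so age and sorted fraction differ together and cannot be told apart. Nothing in the labels says whether the 2 libraries of a group came from separate animals, and chromatin without a called peak need not have been closed.

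Thymic epithelium forms the scaffold in which T cells develop. Its cortical cells support early thymocytes and positive selection, and its medullary cells display self-antigens. In the embryo the epithelium grows out of the pharyngeal endoderm. WNT, FGF, BMP and hedgehog signals and the forkhead factor Foxn1 act at different steps of the development of this tissue. Open chromatin away from promoters often marks enhancers, which change between stages and cell types more than promoters do, and the nearest gene need not be the one an enhancer acts on.

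The 10 lists differed in length, from 40858 peaks in mTEC2 replicate 2 to 151646 in E17 replicate 2, and the files hold no read counts, so depth is unknown. Peaks at gene boundaries (at most 1 kb from a gene's start or end) were called at 7 to 16 of 18 listed TEC genes in the day 6 lists and at 17 in each embryonic list. Epcam and Krt8, epithelial markers, had such a peak in all 6 day 6 lists and in all 4 embryonic lists. Krt18, another epithelial keratin gene, had one in 4 day 6 lists and Psmb11, a cortical proteasome subunit gene, in 3, and both in all 4 embryonic lists. Foxn1 had one in 0 day 6 lists and in all 4 embryonic lists. Of 20 mesenchyme markers, 0 to 8 had a boundary peak in the day 6 lists and 13 to 18 in the embryonic lists, and Pdgfra had one in 0 day 6 lists and in all 4 embryonic lists. Of 22 thymocyte and T cell markers, 2 to 19 had one in the day 6 lists and 6 or 7 in the embryonic lists. Endothelial markers, 20 in all, ranged from 2 to 9 at day 6 and from 8 to 14 in the embryo, and the 20 macrophage, dendritic and B cell markers from 3 to 8 and from 6 to 11. Ptprc, which encodes the pan-leukocyte protein CD45, had no boundary peak in any list, and the T cell gene Cd3e had one in 3 day 6 lists and in 0 embryonic lists. The part of these other cell types in the results was not tested.

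Some of these regions touched an annotated promoter window, taken as 250 bases before to 50 bases after a gene's start in RefSeq build GRCm38.p6 (mm10), from which the sequences are taken. Of 32851 windows, 49 (0.149%) were touched, by 43 regions, and 31 protein-coding genes had such a window. The windows covered only 17491 of the 21883 protein-coding genes. Regions at the starts of genes without a window could not be counted, so these counts may be too low. The 4 protein-coding windows below belong to the highest-ranked regions among them and are shown because each pairs a start site with a strong embryonic peak and no day 6 peak. Capitals mark the bases inside the merged region.
Robo2, chr16:75447244-75447543, minus strand: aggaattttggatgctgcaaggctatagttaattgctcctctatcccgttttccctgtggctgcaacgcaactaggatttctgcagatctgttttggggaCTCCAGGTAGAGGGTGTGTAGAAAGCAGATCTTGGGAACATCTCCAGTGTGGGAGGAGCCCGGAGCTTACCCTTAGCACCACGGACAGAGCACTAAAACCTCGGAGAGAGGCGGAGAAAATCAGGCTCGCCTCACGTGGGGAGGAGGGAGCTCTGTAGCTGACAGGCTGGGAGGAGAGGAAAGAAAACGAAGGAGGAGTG
Fyb2, chr4:104913311-104913610, plus strand: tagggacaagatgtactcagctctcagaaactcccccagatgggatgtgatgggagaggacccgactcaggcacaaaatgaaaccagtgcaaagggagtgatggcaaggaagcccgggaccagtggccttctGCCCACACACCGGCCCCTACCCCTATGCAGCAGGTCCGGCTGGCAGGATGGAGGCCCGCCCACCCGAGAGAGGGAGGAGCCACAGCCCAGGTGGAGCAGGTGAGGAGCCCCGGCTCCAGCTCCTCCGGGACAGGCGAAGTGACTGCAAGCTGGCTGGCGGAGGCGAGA
Kcna4, chr2:107290339-107290638, plus strand: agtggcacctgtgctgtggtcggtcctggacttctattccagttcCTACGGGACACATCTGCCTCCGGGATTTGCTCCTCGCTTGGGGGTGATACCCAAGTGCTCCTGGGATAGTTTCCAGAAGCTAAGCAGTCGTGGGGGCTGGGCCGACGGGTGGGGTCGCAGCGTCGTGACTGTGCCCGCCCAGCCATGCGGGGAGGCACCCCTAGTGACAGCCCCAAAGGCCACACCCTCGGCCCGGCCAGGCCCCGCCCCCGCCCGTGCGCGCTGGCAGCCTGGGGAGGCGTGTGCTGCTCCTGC
Prrg2, chr7:45061603-45061902, minus strand: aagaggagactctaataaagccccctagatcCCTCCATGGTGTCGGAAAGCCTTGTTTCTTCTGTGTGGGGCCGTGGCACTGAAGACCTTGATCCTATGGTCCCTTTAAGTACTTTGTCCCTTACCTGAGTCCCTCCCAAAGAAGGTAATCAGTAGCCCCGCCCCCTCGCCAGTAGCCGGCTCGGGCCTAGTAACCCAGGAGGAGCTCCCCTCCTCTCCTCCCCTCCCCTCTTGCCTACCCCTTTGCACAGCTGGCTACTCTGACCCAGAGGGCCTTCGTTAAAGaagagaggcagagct

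At Robo2, which encodes a receptor for the guidance protein Slit, the region ran from 75447067 to 75447443 on chromosome 16 and covered 200 bases of the window, including the start site. Its −log10 q was 27.7 and 19.2 at E15 and 11.02 and 25.04 at E17. E15 replicate 1 was the highest of the 4 and E17 replicate 1 the lowest. At Kcna4, a voltage-gated potassium channel gene, the values were 11.4 and 10.7 at E15 and 9.72 and 16.7 at E17. At Fyb2 they were 10.1, 9.23, 12.2 and 19.2 in the same order, and at Prrg2 8.34, 9.89, 9.03 and 17.2. The Kcna4 window had 67.7% G and C and 20 CpG dinucleotides, the Robo2 window 53.3% and 9, the Fyb2 window 63.7% and 11, and the Prrg2 window 56.7% and 7.

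Promoter windows touched by strong embryonic-only regions were less rich in CpG than those of lasting regions. Their median was 11 CpG dinucleotides per window (quartiles 6 and 20). Windows touched by weaker embryonic-only regions, called in all 4 embryonic lists below the threshold in at least 1, also had a median of 11. The median was 16 in windows touched by strong embryonic regions with a peak in 1 to 5 day 6 lists, 24 (quartiles 18 and 31) in those with a peak in all 6, and 7 over all windows. At least 10 CpG dinucleotides were present in 53.1%, 57.6%, 76.5%, 94.3% and 43.5% of the windows of these 5 sets in that order. The GC box (GGGCGG, either strand), bound by SP and KLF factors, was found in 26 of the 49 windows (53.1%), against 73.6% for regions found in all 6 day 6 lists and 35.7% of all windows. CCAAT was found on either strand in 10 windows (20.4%), against 43.7% and 37.4%. TATAAA was found in 1 (2.04%), against 4.92% and 13.6%. None of the 3 strings contains another, and some windows overlap each other. A string's absence says only that these letters are not in the window, and with 49 windows the shares are coarse. The sets also differed in gene type. Of 47 genes with a window touched by strong embryonic-only regions 31 were protein-coding, against 6127 of 6895 for regions found in all 6 day 6 lists. The sets were matched neither for gene type nor for region width, and the part of either in the CpG counts was not tested.

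Among the protein-coding windows lying wholly inside a region were those of Hmx1, a homeobox factor gene, with 38 CpG dinucleotides, Sv2c, a synaptic vesicle protein gene, with 32, Fgf12, an intracellular FGF family gene, with 29, Tmem132c with 29, and Tgfbi, a secreted matrix protein gene, with 22. The window of Chn1, a Rac regulator gene, had 5. At Gad2, which encodes a GABA-synthesising enzyme, 260 bases of the window were covered, and at Tfap2e, an AP-2 family factor gene, 268. The lowest −log10 q of these 8 regions was 5.04 to 7.74. Hmx1 had −log10 q of 5.07 and 5.16 at E15 and 6.18 and 5.42 at E17. No region touched any of 1005 annotated miRNA hairpins, but without the same count for other regions nothing is read from this.

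Absence at day 6 was less frequent among stronger regions. Of 59716 regions called in all 4 embryonic lists near a gene, 13088 (21.9%) had no day 6 peak. Among the 27585 that were strong in all 4, the share was 5.56%. It was 50.8% where the lowest embryonic −log10 q was 1 to 2, 42.7% at 2 to 3, 24.9% at 3 to 5, 8.33% at 5 to 10 and 0.991% at 10 to 20. None of the 1450 regions at 20 or more lacked a day 6 peak. Of the 1533 regions, 1446 (94.3%) had a lowest value under 10, so the set lay at the lower end of strong embryonic chromatin.

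**Figure D1:**
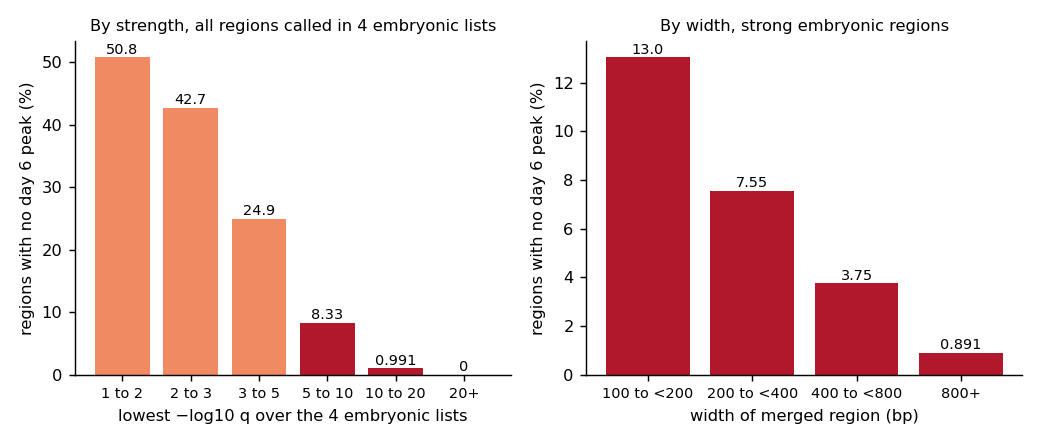
Share of regions with no peak in any day 6 list (y axis, percent), by the lowest −log10 q over the 4 embryonic lists (left, regions called in all 4 near a gene) and by the width of the merged region in bp (right, strong regions only). Orange bars are regions below the threshold of 5 and red bars those above it, with values printed above them: the share falls from 50.8% to 0 with strength and from 13.0% to 0.891% with width.

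The regions were narrow, with a median of 237 bp (quartiles 162 and 425, range 97 to 1619), against 363 bp for weaker embryonic-only regions, 370 bp for strong regions with 1 to 5 day 6 lists and 804 bp for those with all 6. Of strong regions 100 bp to under 200 bp wide 13.0% had no day 6 peak, against 0.891% of those of 800 bp or more. The strongest peaks of the 4 lists shared at least 1 bp in 1531 of the 1533 regions. That common core had a median of 117 bp, or 55.8% of the region, and 1497 regions held exactly 1 peak in every embryonic list.

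The rule itself placed every region above the middle of each embryonic list, since under 50% of each list's peaks reach the threshold. The regions' median −log10 q was 7.49 and 7.53 at E15 and 8.48 and 14.9 at E17, at the 74.6th, 72.7th, 72.1st and 84.1st percentile of the list. The authors' fold enrichment, a ratio to the library's background, had medians of 6.55, 6.58, 6.80 and 8.93. E17 replicate 2, the longest list, held the highest of the 4 values in 1310 regions (85.5%), and values of different lists are not on 1 scale. By comparison, strong regions with a peak in all 6 day 6 lists had medians of 16.4, 17.4, 12.9 and 19.8.

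**Figure D2:**
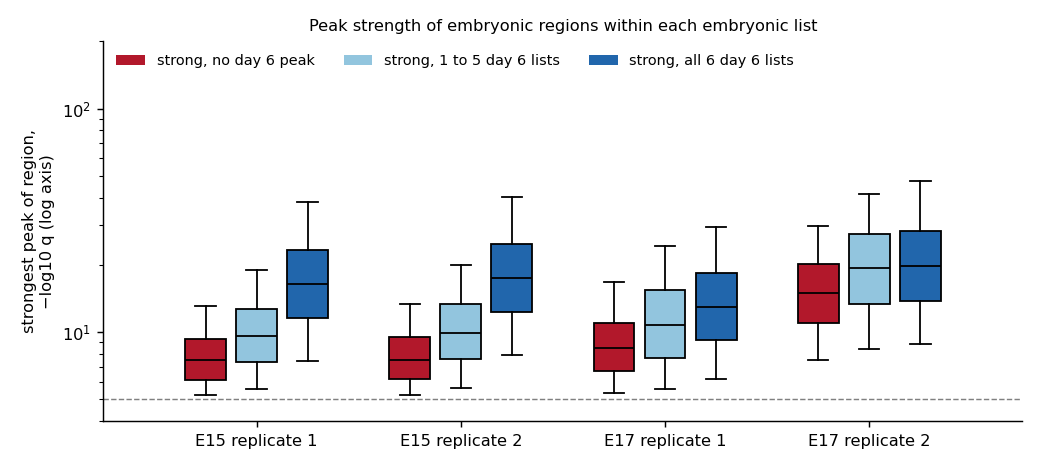
Strongest peak per region as −log10 q (log axis) in each embryonic list, for strong regions with no day 6 peak, with a peak in 1 to 5 day 6 lists and with a peak in all 6. Boxes span the quartiles with the median as a line, whiskers run from the 5th to the 95th percentile, the dashed line is the threshold of 5, and the boxes of regions with no day 6 peak sit lowest in every list.

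The order of the regions was shared between lists only in part. Over the 1533 regions, which share lists and a common threshold, Spearman's rank correlation was 0.56 between the E17 lists, 0.32 between the E15 lists and 0.25 to 0.33 between an E15 and an E17 list. Of the top 100 regions in each list, 46 were shared between the E17 lists, 29 between the E15 lists and 22 to 31 across ages. In the 17372 strong regions with 1 to 5 day 6 lists, whose values span a wider range, the same correlations were 0.76, 0.58 and 0.47 to 0.49.

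At the threshold, the regions just inside lay in Ptprj (5.003), near Rhod (5.004) and in Plekhg1 (5.005), and those just outside lay in Dcun1d1 (4.997), near Disc1 (4.997) and near Ubl3 (4.997). These 6 regions cannot be told apart by strength.

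The list left out of a choice gives values the choice did not use. When the regions were chosen from 9 lists, the left-out day 6 list had a peak in 19.7 ± 20.8% of them (SD, n = 6) and the left-out embryonic list in 96.2 ± 2.69% (SD, n = 4). Peaks of −log10 q of at least 5 were found in 1.01 ± 1.96% by day 6 lists and in 75.6 ± 15.7% by embryonic lists. Peaks this strong were scarcer throughout the day 6 lists, at 6.33 to 14.3% of all peaks in each, against 41.7 to 48.8% in each embryonic list. The part of this list-wide difference in the absences was not tested. Of all strong embryonic regions, single day 6 lists called 41.9 to 87.6% and left-out embryonic lists 98.8 to 99.99%. Strong peaks were found in 9.55 to 41.1% of them by day 6 lists and in 87.8 to 99.7% by embryonic lists.

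The day 6 lists differed widely in this. The left-out list called 2.73% of the chosen regions for mTEC4 replicate 1 and 11.9% for mTEC4 replicate 2. It called 4.01% for mTEC1 replicate 1 and 29.0% for mTEC1 replicate 2. For mTEC2 replicate 1 the share was 57.7%, and for mTEC2 replicate 2 it was 13.0%. The lists of each fraction differed, most of all in mTEC2. Without mTEC2 replicate 1 the number of regions was 3623 in place of 1533, and 4.996% of these had a strong peak in it. That list was the longest at day 6, with 101917 peaks. Among day 6 lists it also had the most boundary peaks at thymocyte and T cell markers (19 of 22), mesenchyme markers (8 of 20) and TEC genes (16 of 18). The part of list length or of other cell types in its calls was not tested.

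**Figure D3:**
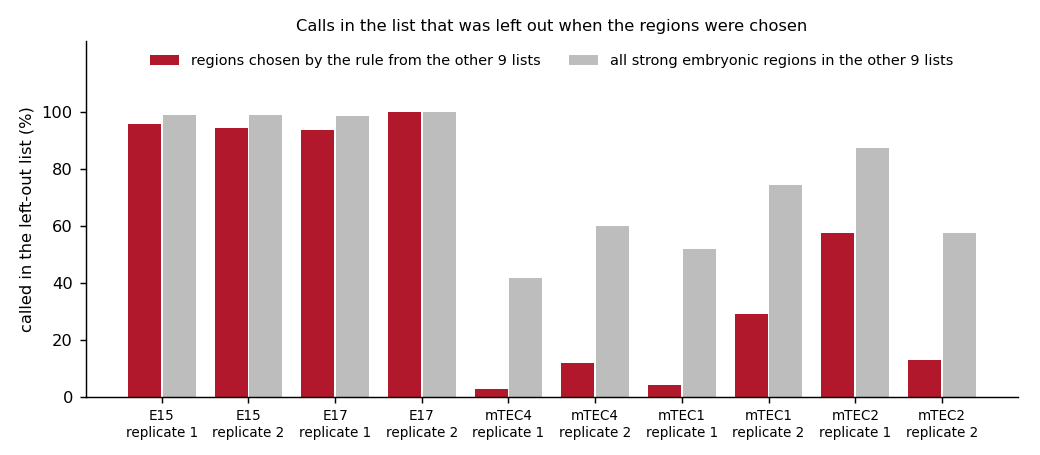
For each list (x axis, by age and fraction), the percent of regions chosen from the other 9 lists that the left-out list called (red), beside the percent of all strong embryonic regions it called (grey). Embryonic lists call 94.0 to 100% of the chosen regions, day 6 lists 2.73 to 57.7%, with mTEC2 replicate 1 the highest of the 6.

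Left-out embryonic lists called nearly all regions but not all at full strength. A peak of at least 5 was found in 67.3% of the regions chosen without E15 replicate 1, 66.5% without E15 replicate 2, 69.6% without E17 replicate 1 and 99.1% without E17 replicate 2. Over all strong embryonic regions the same shares were 90.3%, 90.8%, 87.8% and 99.7%.

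Strong embryonic regions that were called in exactly 1 day 6 list numbered 3254. Of these, 2087 (64.1%) were called in mTEC2 replicate 1 alone, 624 in mTEC1 replicate 2, 229 in mTEC2 replicate 2, 207 in mTEC4 replicate 2, 64 in mTEC1 replicate 1 and 43 in mTEC4 replicate 1. The day 6 peaks there were weak, with a median −log10 q of 1.62 to 2.22 by list. For the 1533 regions the nearest day 6 peak of any list lay a median of 3681 bp away, and within 1 kb for 16.2%, against 3025 bp and 19.6% for weaker embryonic-only regions.

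The regions lay mostly inside genes and away from gene ends. Of the 1533, 118 (7.697%) lay at a gene boundary, 822 (53.6%) inside a gene span and 593 (38.7%) elsewhere. The Wilson 95% interval of the boundary share, which covers counting error only, was 6.47 to 9.14%. It was 9.06% for weaker embryonic-only regions, 17.9% for strong regions with 1 to 5 day 6 lists and 73.7% for those with all 6. At matched widths of 400 bp to under 800 bp the boundary shares were 9.27%, 9.66%, 22.0% and 73.1%. At 100 bp to under 200 bp they were 6.49%, 8.18%, 7.16% and 8.28%. In that narrow class 50.2% of the strong embryonic-only regions lay inside a gene, against 54.9%, 46.7% and 37.9% of the other sets in the same order.

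**Figure D4:**
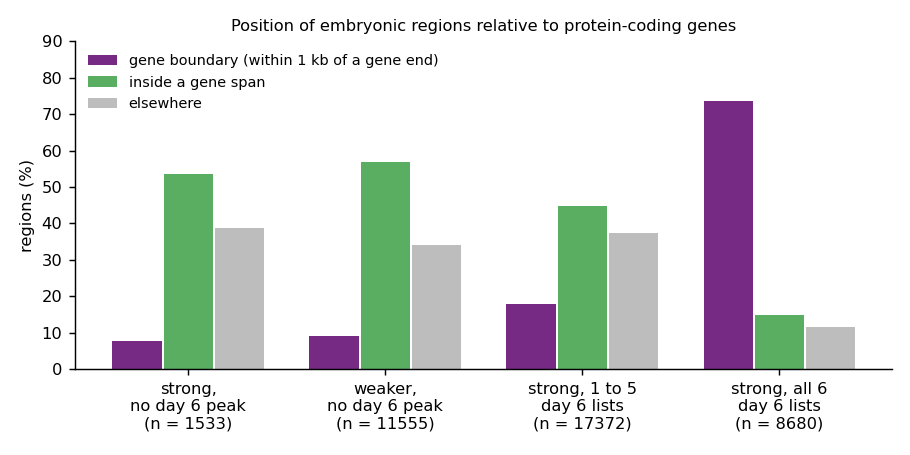
Percent of regions (y axis) at a gene boundary, inside a gene span or elsewhere, for strong regions with no day 6 peak and for the 3 sets they are compared with, with the number of regions under each. Boundary regions make up 7.697% of the first set and 73.7% of the last.

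Most genes nearest to these regions had only 1 of them. The 1533 regions were nearest to 1392 protein-coding genes, 6.36% of 21883, and to 10% of the 13883 genes nearest to any strong embryonic region. Of these genes 1271 had 1 region, 103 had 2, 16 had 3 and 2 had 4. Neighbouring regions on a chromosome were a median of 859 kb apart, with 14 gaps of at most 10 kb. Spacing and regions per gene depend on the number of regions. Neither was compared with another set of this size, so neither is read as a trait of these regions. Chromosome X held 26 (1.696%), against 1.84% and 2.28% of strong regions with 1 to 5 and with all 6 day 6 lists. Of the 593 regions outside gene spans and boundaries, 98 (16.5%) lay in a span annotated as long noncoding RNA. The share was 19.0% for weaker embryonic-only regions. It was 18.3% and 26.5% for strong regions with 1 to 5 and with all 6 day 6 lists.

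The leading 20 regions, 1 per gene, were ranked by their lowest within-list percentile, and 13 lay inside a gene. They were 121 to 575 bp wide. Their lowest −log10 q was 11.8 to 15.96 and their highest 23.3 to 47.1, and the nearest day 6 peak lay 627 to 35015 bp away. All 20 also passed when each list was shortened to its 40858 strongest peaks. Passing was near certain by construction, since the ranking used the same percentiles and shortening removes only weaker peaks.

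First came a region inside Deup1, which builds the deuterosomes that multiply centrioles in multiciliated cells, with −log10 q of 15.5 and 20.1 at E15 and 22.8 and 32.7 at E17. It lay on chromosome 9 at 15595475 to 15595721. The second lay 16099 bp from Cd55b, a complement regulator gene, on chromosome 1 at 130372270 to 130372426, with 15.9 and 18.7 at E15 and 19.5 and 23.3 at E17. Each of these had its lowest value in E15 replicate 1 and its highest in E17 replicate 2. In Wif1, which encodes a secreted WNT inhibitor, the region had 21.2 and 15.96 at E15 and 19.2 and 47.1 at E17. The Wif1 values of E15 replicate 1 and E17 replicate 1 were close, and E17 replicate 2 stood above the rest.

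The next 3 regions by rank lay inside genes. Nckap1, a subunit of the actin-nucleating WAVE complex, had an internal region on chromosome 2 at 80512576 to 80512880 with 15.1 and 15.6 at E15 and 18.9 and 27.4 at E17. Kif16b, a kinesin that moves endosomes, had 15.1 and 16.7 at E15 and 16.7 and 36.8 at E17, on chromosome 2 at 142813101 to 142813310. Arhgap21 had 14.2 and 19.999 at E15 and 18.2 and 36.3 at E17. In all 3 the E15 replicate 1 value was the lowest. Rabgap1l, Ankrd44 and Arhgef37 also had an internal region among the 20. No theme is drawn from these genes, which were ranked by strength alone.

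The region 23205 bp from Pou1f1, a pituitary factor gene, had 17.1 and 14.0 at E15 and 20.8 and 38.4 at E17. That 39698 bp from Hmx1 had 15.3 and 12.9 at E15 and 15.3 and 33.4 at E17. In Kcnj6, an inward rectifier potassium channel gene, the region had 16.9 and 12.7 at E15 and 14.9 and 26.9 at E17. For these 3 genes E15 replicate 2 was the lowest of the 4. Aadat, a kynurenine aminotransferase gene, Prss56, Xrcc4, which serves DNA end joining, Cdk15, Mogat2, Scn8a, Qrfprl and Yae1d1 complete the 20.

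Genes nearest to these regions tended to be long, as did those nearest to weaker embryonic-only regions. The median length of the 1392 genes was 67.3 kb, against 17.2 kb for all protein-coding genes. It was 23.8 kb for genes whose strong embryonic regions all had a day 6 peak. Counted once per region, the median was 75.8 kb, against 77.3 kb for weaker embryonic-only regions. It was 45.5 kb and 26.3 kb for strong regions with 1 to 5 and with all 6 day 6 lists. Ptprd, a receptor tyrosine phosphatase gene spanning 2271 kb on chromosome 4, held 4 regions, all inside it. Their lowest −log10 q in any list were 6.59, 6.00, 7.97 and 6.22. Of 34 regions at Ptprd called in all 4 embryonic lists, 16 had no day 6 peak.

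Gli2, a transcriptional effector of hedgehog signalling on chromosome 1 at 118834061 to 119054405, had 4 regions, 1 inside the gene and 3 beyond its high-coordinate end. The internal region, at 119035324 to 119035541, had −log10 q of 6.46 and 7.30 at E15 and 6.90 and 9.61 at E17. The others lay 10639, 65572 and 71013 bp away, and the second of them, at 119119978 to 119120157, held the highest single value, with 8.67 and 8.84 at E15 and 6.40 and 16.7 at E17. Of 30 regions nearest to Gli2 and called in all 4 embryonic lists, 13 had no day 6 peak, and 10 of its 14 strong regions did have 1. The gene with 10 kb on each side held 19 and 21 regions in the E15 lists, 17 and 26 in the E17 lists, and 4 and 4, 2 and 8, and 11 and 2 in the mTEC4, mTEC1 and mTEC2 lists. Each embryonic count was above each day 6 count, as also at Ank2 but not at Ptprd, where mTEC2 replicate 1 had 47 and E17 replicate 1 had 41. These genes were named for their many regions absent from day 6, and list length was not corrected for.

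Other genes had 3 regions each. Kcnj6 had 2 inside and 1 beyond its end, with lowest values of 10.1, 12.7 and 6.51. For Dmrt2, a DM domain factor gene of only 6.62 kb, all 3 lay outside, 17505 to 34455 bp away, and the farthest had 10.4 and 15.3 at E15 and 20.7 and 38.9 at E17. Hs3st5, which sulfates heparan sulfate, had 3 internal regions, the highest-ranked with 8.83 and 12.7 at E15 and 12.9 and 18.3 at E17. Iqgap2, a cytoskeletal scaffold gene, also had 3 inside. Kif16b, Ank2, Slc35f1, Chd6 and Nav3 had at least 2 inside the gene and the rest inside or beyond it. Of 14 strong embryonic regions nearest to Nav3, 3 lacked a day 6 peak.

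Of 620 genes in 26 lists by role, 69 (11.1%) were nearest to such a region, against 6.36% of all protein-coding genes. Of the 470 listed genes nearest to any strong embryonic region the share was 14.7%, against 10% of all such genes. Housekeeping genes, a reference list, stood at 11.1% and 11.8% in the same order, so these shares are not read as a trait of developmental genes. The lists were chosen with earlier results of these data known, and no list was tested. WNT ligands had 3 of 23 genes. The Wnt6 region, inside the gene, had −log10 q of 9.17 and 11.7 at E15 and 15.8 and 33.1 at E17, the Wnt7b region 6.71 and 7.76 and then 6.95 and 13.1, and the region 7909 bp from the WNT enhancer gene Rspo1 6.78 and 12.4 and then 5.32 and 8.11. Wnt6 and Wnt7b were highest in E17 replicate 2, and Rspo1 in E15 replicate 2.

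WNT receptors had 5 of 20 genes, Lgr5, Lgr6, Ror1, Lrp6 and Fzd2. Lgr5 and Lgr6 encode receptors for R-spondins, and Lrp6 a co-receptor for WNT. The Lgr5 region lay 30843 bp away, with 9.32 and 8.59 at E15 and 10.5 and 16.8 at E17. That in Lrp6 had 10.4 and 5.23 at E15 and 6.04 and 12.4 at E17, just over the threshold in E15 replicate 2. Of 24 WNT inhibitors and nuclear effectors, Wif1 and Sfrp4 had 1 each, and the Sfrp4 region, 3443 bp from that secreted inhibitor's gene, had 8.85 and 7.60 at E15 and 8.25 and 32.0 at E17.

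The list of FGF ligands, which also holds intracellular family members that are not ligands, had 4 of 22 genes with 6 regions. The intracellular members Fgf12 and Fgf14 had 2 each, and Fgf18 and Fgf23 had 1 each. The Fgf18 region, 18847 bp away, had 9.75 and 7.41 at E15 and 5.49 and 21.3 at E17. Of 19 FGF and EGF receptors and inhibitors there were 2, Spry4, an inhibitor of receptor tyrosine kinase signalling, and Erbb4. BMP and TGF-beta ligands had 3 of 21, with a region 3505 bp from Bmp7 at 9.10 and 8.78 and then 8.10 and 15.5, and others near Bmp6 and Inhbb. Their receptors, inhibitors and SMADs had 5 of 26, among them the receptor genes Bmpr1a, Bmpr2 and Tgfbr1 and the activin antagonist gene Fst. The Bmpr1a region lay 5 bp from the gene's end, with 12.4 and 6.21 at E15 and 9.18 and 26.5 at E17.

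In the Notch pathway 3 of 23 genes had a region. That of Notch1 lay at a gene boundary on chromosome 2 at 26458248 to 26458843, with 6.88 and 5.67 at E15 and 8.99 and 16.6 at E17. The region nearest to the ligand gene Dll1 lay 81431 bp away and covered 261 bases of the promoter window of Gm35576, a gene not annotated as protein-coding. The coactivator gene Maml3 had an internal region. Hedgehog and retinoic acid genes had 3 of 30 with 6 regions, at Gli2, at the retinoic acid receptor gene Rarb and 41726 bp from Cyp26b1, which degrades retinoic acid. Guidance genes had 6 of 42. Beside Robo2 these included Slit2, which encodes a ligand of Robo receptors, with 2 internal regions, the higher-ranked at 6.41 and 9.32 and then 13.7 and 28.1. Slit3 had 1 at 5.78 and 6.38 and then 11.1 and 19.5, so both Slit genes had their lowest value in E15 replicate 1.

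Thymopoietic niche factors, through which the epithelium feeds developing T cells, had 3 of 17. The internal region of Il7, a cytokine gene, had 12.95 and 8.85 at E15 and 13.8 and 28.9 at E17. The region nearest to the chemokine gene Cxcl12, 73360 bp away, had 6.41 and 19.5 at E15 and 11.2 and 9.89 at E17, and that in Kitl, which encodes stem cell factor, 7.66 and 9.85 and then 6.56 and 9.35. Cxcl12 and Kitl, unlike most, were highest in E15 replicate 2. Organogenesis factors had 1 of 19, Foxa2, an endoderm factor gene, at 63331 bp. Foxn1, Trp63, Pax1 and Pax9 had 0. Their strong embryonic regions, 2, 5, 7 and 3 in number, each had a peak in at least 1 day 6 list. With weaker ones counted, 2 of 5 regions called in all 4 embryonic lists at Foxn1 lacked a day 6 peak. So did 1 of 14 at Trp63, 3 of 13 at Pax1 and 0 of 3 at Pax9. In Foxn1 and 10 kb around it, single embryonic lists had 7 to 10 regions and single day 6 lists 0 to 6, without correction for list length.

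TEC identity and cortical genes had 2 of 18, Cxcl12 and Prss16, a serine protease gene of cortical TEC. The Prss16 region, 756 bp from the gene, had 7.67 and 9.62 at E15 and 6.87 and 6.68 at E17. Medullary maturation and NF-kB genes had 3 of 24. Cd40, a receptor that drives medullary TEC maturation, had an internal region with 7.31 and 6.29 at E15 and 13.3 and 29.1 at E17. Tnfrsf11a, which encodes RANK, and Traf3, an NF-kB pathway adaptor gene, had theirs 65580 and 15868 bp away. Prss16 was lower in both E17 lists than in both E15 lists, and Cd40 was higher in both, with values not comparable across lists.

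Epithelial transcription factor genes had 3 of 28 with 5 regions. Tead1, a factor of the Hippo pathway on chromosome 7, had 3, the highest-ranked at 112865824 to 112866003 with 6.95 and 10.9 at E15 and 9.38 and 16.5 at E17. Grhl1, a grainyhead-like factor gene, had an internal region with 8.03 and 8.64 at E15 and 12.9 and 16.6 at E17, and Esrp1, an epithelial splicing factor gene counted with this list, had 1 at 2835 bp. AP-1 factors had 1 of 20, Bach2. Adhesion and junction genes had 5 of 33, among them the polarity genes Pard6b and Pard3 and the claudin genes Cldn10 and Cldn23. Keratin and cornified envelope genes had 2 of 28, Flg and Ppl, but only 8 of these had any strong embryonic region. Basement membrane and integrin genes had 5 of 39, with 2 regions in Fras1, which encodes an epithelial basement membrane protein.

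Tuft, microfold, ciliated and endocrine genes had 2 of 30, Deup1 and Dclk1, and muscle genes had 0 of 22. Among markers of other cell types, mesenchyme had 1 of 20, endothelium 1 of 20, thymocytes and T cells 2 of 22, and macrophages, dendritic and B cells 1 of 20. These were Thy1, Vwf, Zbtb7b and Rag1, and Ptprc. The region 3229 bp from Rag1, a recombinase gene of developing lymphocytes, had 15.3 and 6.44 at E15 and 19.4 and 23.5 at E17. Housekeeping genes had 2 of 18 (11.1%), the same share as all listed genes together. Each list's count is small, and 1 gene more or less moves its share by several points.

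The ends of the genes nearest to these regions were called less often at day 6 than in the embryo. On average 55.5 ± 8.68% of the 1392 genes had a boundary peak in the day 6 lists (SD, n = 6) and 80.7 ± 2.71% in the embryonic lists (SD, n = 4). Over all protein-coding genes these were 51.7 ± 6.53% and 66.6 ± 2.29%. Over the 12491 genes whose strong embryonic regions all had a day 6 peak, and which were thus chosen for such a peak, they were 69.1 ± 7.18% and 84.2 ± 1.75%. Of the 1392 genes, 501 (35.99%) had a boundary peak in all 6 day 6 lists and 348 in none. Of 1055 of the genes with a boundary peak in all 4 embryonic lists, 47.5% also had one in all 6 day 6 lists and 99 (9.38%) in none. Over all 13650 genes with such peaks the shares were 57.2% and 3.72%.

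List by list the difference ran the same way. Of the 1055 genes, 58.2% and 74.8% had a boundary peak in the mTEC4 lists, 65.0% and 78.7% in the mTEC1 lists and 85.7% and 63.98% in the mTEC2 lists, against 67.8% and 83.6%, 74.0% and 86.6%, and 91.5% and 72.7% of all such genes. Some of these genes have a region of the set at their own boundary, which lacks a day 6 peak by the rule. Among 776 genes with the region at most 25 kb away and none at a boundary, 50.4% had a boundary peak in all 6 day 6 lists and 5.41% in none. In single lists these 776 genes stood at 62.2 to 90.1%, below all genes in each of the 6 lists. The genes were chosen through the regions and differ from others in length, so no p is given, and the part of gene length was not tested.

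**Figure D5:**
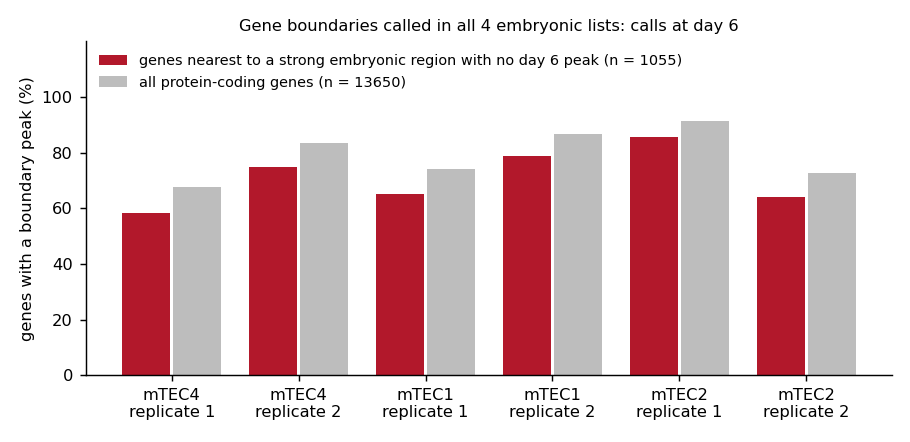
Among genes whose boundary was called in all 4 embryonic lists, the percent with a boundary peak in each day 6 list (y axis), for genes nearest to a strong embryonic-only region (red, n = 1055) and for all protein-coding genes (grey, n = 13650). The red bar is lower in each of the 6 lists, by 58.2% against 67.8% in mTEC4 replicate 1 and 85.7% against 91.5% in mTEC2 replicate 1.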

How the data were processed

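Chromatin accessibility was measured in 10 libraries of 5 groups, taken from the sample titles. For every library the authors deposited a broad peak list of its own, describing nucleosome-free chromatin, per the labels. Cutadapt, Bowtie2, Picard and MACS2 with build mm10 are named, without versions or order, per the submitters' processing notes. Any shift of read ends for the cutting enzyme is not given in these sources. Each deposited peak has a score (10 times the −log10 q with decimals dropped, not used here), a fold enrichment as a ratio to the library's background, and the −log10 p and −log10 q of the authors' caller, each relative to its own list.

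Peaks that overlapped or touched were merged (Python 3.11.15, pandas 2.3.3, numpy 2.4.6). Genes were the 21883 protein-coding spans of RefSeq GRCm38.p6. A region was assigned to the nearest span, or to the one it overlapped most. Merging and assignment were tested on simulated peaks. Depth is unknown, so no counting error is given per region. The regions and gene lists were chosen with earlier results of these data known. No test was made, because the values that would be tested chose the regions. Named were the 20 leading regions, the 12 genes with the most regions (1 is not reported here), up to 4 genes per list, Foxn1, Trp63, Pax1, Pax9 and Wif1, and the 3 regions on each side of the threshold. Other genes, the promoter windows, the width classes and the genes without a region at a boundary were chosen after seeing the data. No genome sequence was used, so motif shares planned over regions were not run, and 3 core promoter strings were searched in promoter windows instead. Left-out lists, thresholds, distances, list lengths and merging were varied.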

Additional observations from a re-analysis of the deposited data

How the results depend on the processing

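Merging only overlapping peaks changed none of the 11 summary values. With a −log10 q of at least 3 there were 5232 regions (12.3% of strong ones, 3862 genes, 196 listed genes, median width 300 bp, 92.05% called by left-out embryonic lists). With at least 10 there were 87 (0.851%, 86 genes, 3 listed genes, 192 bp, 3.45% at gene boundaries, 56.3% inside genes, 76.2% of genes with an embryonic boundary peak, 99.1% called by left-out embryonic lists). With genes within 25 kb the shares were 5.16% of strong regions, 9.23% at boundaries and 64.3% inside genes. With every list cut to 40858 peaks there were 2619 regions (10.8%, 2221 genes, 111 listed genes, 254 bp, 79.3% called by left-out embryonic lists), and 1118 of the 1533 regions (72.9%) were among them, making up 42.7% of that set. Without chaining of peaks the median width was 159 bp. A boundary of 2.5 kb gave 14.4% at boundaries and 49.8% inside genes. Leaving out 1 list gave 1563 to 3623 regions, 5.64 to 13.1% of strong regions, 7.43 to 8.90% at boundaries, 52.3 to 54.2% inside genes, 1415 to 2981 genes, 70 to 157 listed genes, widths of 194 to 248 bp, and 79.3 to 81.4% and 55.3 to 56.2% of genes with a boundary peak in embryonic and day 6 lists. The count was 3623 without mTEC2 replicate 1 and 2315 without E15 replicate 2. Fewer lists make the rule easier to pass by construction, and the cause of the other shifts was not tested. No paired analysis was possible because no result comes from a test. Unknown depth limits every absence: a region without a day 6 peak may be open below detection.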
